A study of Arabidopsis thaliana with 28 samples.

Results

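UMAMIT29, UMAMIT31 and UMAMIT30 are neighbouring genes on chromosome 4 of Arabidopsis thaliana. The stretch described here runs from 582001 to 610100 on TAIR10 and holds these genes and the gaps between them. It was taken as every window of the deposited table that starts in it, 187 of 794311 windows, and it had been chosen because windows in it were lower in nrpe1 than in Col-0. The UMAMIT30 gene runs past its right end. Windows are 200 bp long and start every 150 bp, so neighbours share 50 bp and can share reads.

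The 24 IPARE libraries hold ends of RNA pulled down by an anti-NRPE1 antibody from 18-day-old seedlings of the Columbia ecotype. NRPE1 is the catalytic subunit of Pol V, a plant RNA polymerase. Col-0, the wild type, had 6 libraries, nrpe1 had 5, and spt5l, ago4, dms5-1 and drd3-3 had 2 each. The drd1, dms3, suvh2 and suvh9 mutants and the suvh2/suvh9 double mutant had 1 library each. Averages from whole-genome bisulfite sequencing came from 3.5-week-old leaves of Col-0 and nrpe1, with 2 samples a genotype, so the 2 assays differ in age and tissue. Apart from nrpe1, named for that subunit, and dms5-1 and drd3-3, the labels give no allele. Library names carry gp2 to gp6 or no such tag (called untagged here), and libraries with the same tag are called a set. The sources used here do not say what a tag stands for.

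UMAMIT proteins (Usually Multiple Acids Move In and out Transporters) are membrane proteins, and several of them carry amino acids out of cells. UMAMIT29 is known for its part in amino acid supply to developing seeds. Pol V makes non-coding transcripts. In RNA-directed DNA methylation (RdDM), ARGONAUTE 4 (AGO4) loaded with small RNA pairs with these transcripts, and methylation of cytosines follows, including those in CHG and CHH contexts (H is A, C or T). SPT5L is a Pol V-associated protein that also binds AGO4. DRD1, a chromatin remodeller, and DMS3 work together to allow Pol V transcription. SUVH2 and SUVH9 bind methylated DNA and bring Pol V to it. DRD3 is an older name of the NRPE1 gene.

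In Col-0 nearly all signal of the stretch came from short peaks in the gaps between genes, and the bodies of UMAMIT29 and UMAMIT30 held almost none. The gaps held 88.2% of the 4663 Col-0 counts in 134 windows. The 45 windows of UMAMIT29, UMAMIT31 and UMAMIT30 held 4.40%. The 8 windows of AT4G02775 and AT4G01435, 2 further loci of the gene table, held 7.42%.

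The authors' class lists split the windows likewise. RdDM windows made up 40 of the 187 (21.4%, against 19.9% of all windows), Pol V windows outside RdDM 54 (28.9%, against 25.7%), and windows outside Pol V transcription 93 (49.7%, against 54.3%). The RdDM windows held 88.7% of the Col-0 counts and the windows outside Pol V transcription 1.05%. The sources used here do not give the libraries behind the class lists, so class and count are not separate evidence. In the UMAMIT gene bodies 3 windows were RdDM, 6 non-RdDM and 36 outside Pol V transcription.

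Windows with at least 20 counts over the 6 Col-0 libraries formed 10 runs, called islands 1 to 10 from left to right. They took 42 windows (22.5% of the stretch) and 93.7% of its Col-0 counts, and 37 of the 42 were RdDM windows. Their length ranged from 350 to 1700 bp with a median of 575 bp. None of the 145 windows outside them had more than 19 Col-0 counts.

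**Figure D1:**
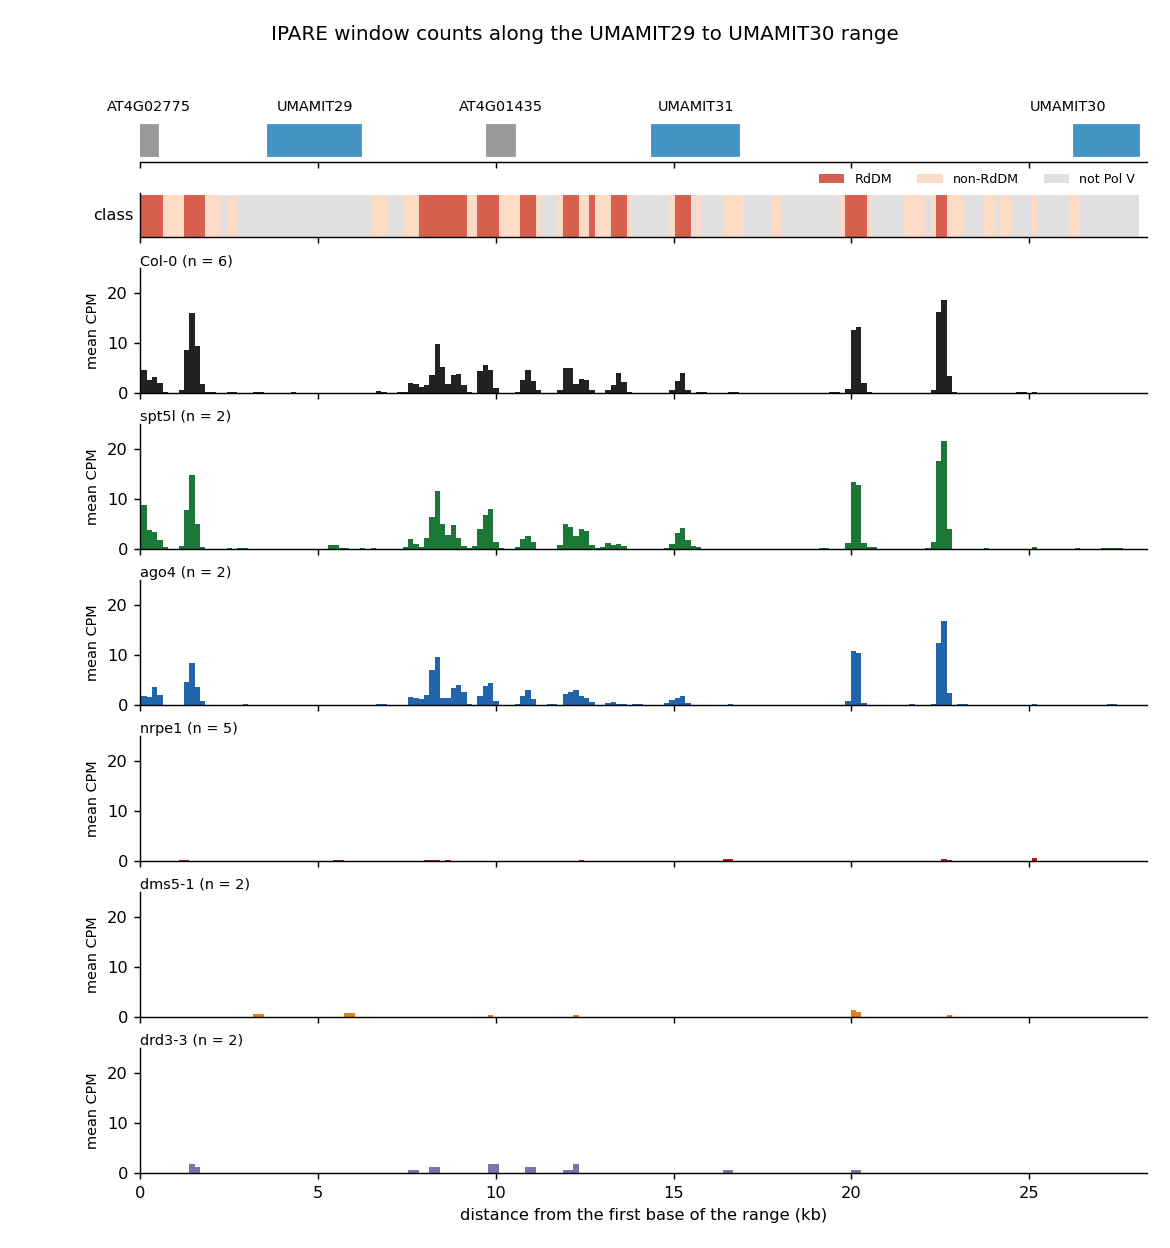
Mean CPM (counts scaled to a library total of 1000000) of each window against the distance from the first base of the stretch in kb, for the 6 genotypes with 2 or more libraries, under the genes and the authors' class of each window. Col-0, spt5l and ago4 have peaks at the same places, between the UMAMIT genes, while nrpe1, dms5-1 and drd3-3 are near 0 on the same axis.

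Island 1 (582001 to 582650) covers AT4G02775 and the start of the gap beside it. Its 4 windows had 95, 54, 70 and 48 Col-0 counts, 90, 39, 35 and 18 in spt5l, and 20, 19, 42 and 23 in ago4. Only the leftmost window had a count in nrpe1, a single one. The island is part of a longer stretch of signal, since the windows just outside the left end, starting at 581701 and 581851, had 189 and 276 Col-0 counts and 3 nrpe1 counts each. At the right end the last windows inside had 0 Col-0 counts each and the first ones outside 2 each.

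Island 2 (583201 to 583850) lies in the gap before UMAMIT29. Its windows had 179, 331, 171 and 28 counts in Col-0, 81, 152, 52 and 4 in spt5l and 52, 96, 40 and 9 in ago4. In nrpe1 they had 2, 1, 0 and 0. The second window, 583351 to 583550, was the highest of this gap. There the Col-0 libraries had 117 (untagged), 62 (gp2), 58 (gp3), 49 (gp4), 30 (gp5) and 15 (gp6) counts, or 11.8 to 20.7 CPM. The nrpe1 libraries had 0 counts except for 1 in gp3. All 6 Col-0 libraries were above all 5 nrpe1 libraries.

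Its methylation differed by context. In this window the average CG level was 70.6% for Col-0 and 72.3% for nrpe1. For CHG the levels were 39.3% and 0%, and for CHH 26.4% and 0.192%. The windows to the left and right, with CHH at 16.1% and 25.2% in Col-0, had 0.163% and 0% in nrpe1. CG in those windows was 36.0% and 23.6% in Col-0 and 34.3% and 33.4% in nrpe1. CHG and CHH were near 0 in nrpe1 across the island, while CG was at a like level in both genotypes.

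Island 3 (589501 to 591200), the longest, fills much of the gap between UMAMIT29 and AT4G01435. Its 11 windows had 25 to 211 Col-0 counts, 752 over the island, against 10 in nrpe1. The highest, 590251 to 590450, had 68, 45, 45, 28, 18 and 7 counts in the Col-0 libraries, 56 and 63 in spt5l and 78 and 35 in ago4. The Col-0 libraries ran from 6.37 to 12 CPM there. Both ago4 libraries (8.08 and 11.2 CPM) and the lower spt5l library (10.8) lay within that range, and the other spt5l library (12.2) just above it. That window had 83.6% CG, 26.3% CHG and 6.97% CHH methylation in Col-0, and no nrpe1 value is given for it. The 2 windows at the right end, starting at 590851 and 591001, had 13.1% and 12.8% CHH in Col-0.

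Island 4 (591451 to 592100) runs from this gap into AT4G01435. Its windows had 84, 127, 100 and 23 counts in Col-0, and only the first had a count in nrpe1, a single one. The left windows carried the highest CHH levels of the stretch, 48.3% and 36.3% in Col-0, with no nrpe1 value given. In the third window CHH was 9.61% in Col-0 and 0% in nrpe1.

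Islands 5, 6 and 7 lie between AT4G01435 and UMAMIT31. Island 5 (592651 to 593150) had 58, 100 and 53 Col-0 counts in its windows and 0 in nrpe1. Island 6 (593851 to 594650) had 102, 109, 44, 64 and 63 in Col-0 and 4 over the island in nrpe1. The highest window of this gap, 594001 to 594200, had 43, 19, 21, 16, 4 and 6 counts in Col-0 and 1 count in nrpe1, in gp3.

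Island 7 (595201 to 595700) varied most between libraries of 1 genotype. Its Col-0 counts were 95 (untagged), 38 (gp2), 2 (gp3), 21 (gp4), 12 (gp5) and 6 (gp6), a mean of 7.77 ± 5.38 CPM (SD, n = 6). The spt5l libraries had 23 (untagged) and 4 (gp3), and the ago4 libraries 11 (gp2) and 3 (gp3). The gp3 library was the lowest in Col-0 and in both mutants, each of which has 1 library in that set. The part of the set in this was not tested. No methylation value is given for the windows of this island.

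Island 8 (597001 to 597350) lies inside UMAMIT31. Its 2 windows had 54 and 82 Col-0 counts, 33 and 44 in spt5l, 18 and 22 in ago4, and 0 in nrpe1, dms5-1 and drd3-3. In the window from 597151 to 597350, the highest of the gene, Col-0 had 24, 22, 11, 19, 2 and 4 counts (1.15 to 6.96 CPM). The left window had 44.3% CG methylation in Col-0. With no count in nrpe1, Col-0 was at least 20.4-fold higher over the island, against a floor of 3 counts over all nrpe1 libraries.

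Islands 9 and 10 lie in the gap between UMAMIT31 and UMAMIT30 and held most of its signal. Island 9 (601951 to 602450) had 264, 266 and 36 counts in Col-0, 138, 133 and 12 in spt5l, 121, 117 and 4 in ago4, and 1, 1 and 0 in nrpe1. CHG was 62.9% and 78.8% in its left windows in Col-0 and 0% in both in nrpe1. CHH there was 35.5% and 12.4% in Col-0 and 0% in nrpe1. CG was 63.8% and 26.8% in Col-0 and 61.1% and 31.3% in nrpe1.

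Island 10 (604351 to 604850) was the highest of the 10 in Col-0, at 38.4 ± 12.1 CPM (SD, n = 6). Its windows had 347, 413 and 78 counts in Col-0, 181, 223 and 42 in spt5l, 140, 189 and 27 in ago4, and 1, 3 and 2 in nrpe1. In the window from 604501 to 604700 the Col-0 libraries had 138, 80, 89, 72, 22 and 12 counts. The spt5l libraries had 107 and 116, the ago4 libraries 113 and 76, and the nrpe1 libraries 1, 1, 0, 0 and 1. Every library of Col-0, spt5l and ago4 was above every nrpe1 library. Methylation was lower here than in island 9 outside CG: CHG was 10% and 7.91% and CHH 6.25% and 3.00% in the left windows in Col-0. In nrpe1 CHG was 0% and 2.21% and CHH 0%, while CG was 62.8% and 83.6%, against 55.2% and 75.8% in Col-0.

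The UMAMIT gene bodies themselves were low. UMAMIT31 had 192 Col-0 counts in 16 windows, with 60, 53, 27, 37, 10 and 5 in the 6 libraries and 2, 2, 0, 0 and 2 in nrpe1 (8.83 ± 4.04 and 0.803 ± 0.976 CPM). Island 8 held 136 of these counts. UMAMIT29 had 10 Col-0 counts in 17 windows, 7 of them in gp2, and 4 in nrpe1. UMAMIT30 had 3 in the 12 windows analysed here and 0 in nrpe1. Per window, which allows for length, UMAMIT31 had 0.552 CPM in Col-0, UMAMIT29 0.0223 and UMAMIT30 0.0100.

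The gaps ranked above these 3 genes on the same scale. The locus AT4G02775, at 3.53 CPM per window, was above every gap, and AT4G01435 (1.16) was above the gap between UMAMIT31 and UMAMIT30. The gap between UMAMIT29 and AT4G01435 had 1.98 CPM per window, that before UMAMIT29 1.91, that between AT4G01435 and UMAMIT31 1.45 and that between UMAMIT31 and UMAMIT30 1.11. By total level the last was highest (69.9 ± 18.8 CPM, in 63 windows). In spt5l the body of UMAMIT29 had 19 and 4 counts and in ago4 5 and 2, too few to pass the filter on low counts.

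Over the whole stretch the genotypes fell into groups. Col-0 had 1647 (untagged), 940 (gp2), 796 (gp3), 749 (gp4), 345 (gp5) and 186 (gp6) counts, which is 292, 231, 162, 274, 199 and 169 CPM. The nrpe1 libraries had 13 (untagged), 18 (gp3), 2 (gp4), 5 (gp5) and 7 (gp6) counts, or 1.16 to 8.33 CPM. The spt5l libraries had 258 and 209 CPM, inside the Col-0 range. The ago4 libraries had 169 and 149 CPM, at and below the low end of that range.

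The remaining replicated mutants were far lower. The dms5-1 libraries had 4 and 10 counts (4.37 and 8.45 CPM), which overlapped nrpe1. The drd3-3 libraries had 12 and 18 counts (15.3 and 20.4 CPM), above every nrpe1 and dms5-1 library and below every Col-0 library.

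Among the single libraries, all of set gp4, suvh9 had 1144 counts (372 CPM), suvh2 337 (100.0 CPM), suvh2/suvh9 119 (48.8 CPM), dms3 51 (20.7 CPM) and drd1 23 (8.00 CPM). In order of level the genotypes ran from suvh9 through spt5l (233 ± 34.6), Col-0 (221 ± 53.9), ago4 (159 ± 14.4), suvh2, suvh2/suvh9, dms3, drd3-3 (17.8 ± 3.63), drd1 and dms5-1 (6.41 ± 2.88) to nrpe1 (5.03 ± 2.80). The libraries of spt5l and Col-0 overlapped, as did those of Col-0 and ago4, and those of dms5-1 and nrpe1. The counting interval of dms3 (15.4 to 27.2 CPM) included the higher drd3-3 value, with the lower one (15.3) just under it. That of drd1 (5.07 to 12) included the dms5-1 mean and the nrpe1 mean was just below it. In bulk seedlings fewer cells with the signal and less signal per cell cannot be told apart.

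**Figure D2:**
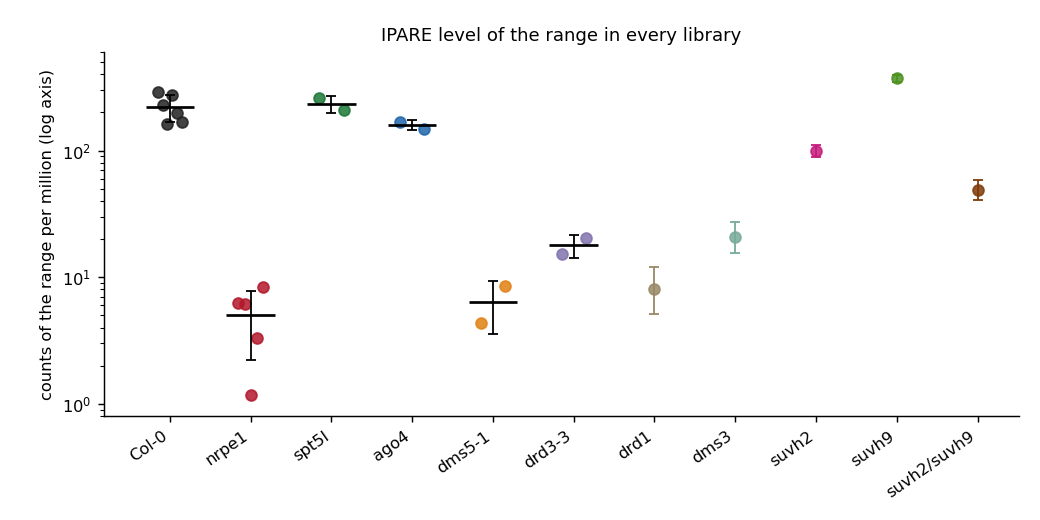
CPM of the whole stretch (log axis), 1 point a library. Lines and bars give the mean and SD where a genotype has 2 or more libraries, and bars on single libraries give the 95% counting interval. Col-0, spt5l, ago4 and suvh9 sit above 140 CPM, and nrpe1, dms5-1 and drd1 at or below 12 CPM.

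The loss in nrpe1 is the property the stretch was chosen for, and is given as a description. Pooled over libraries and per library total, Col-0 was 46.7 times nrpe1 (95% counting interval 34.8 to 64.1). Of the 45 nrpe1 counts 60% lay in islands, against 93.7% in Col-0. Islands were defined by Col-0 counts, so a higher share in Col-0 is built in. Outside them 1 window, 607051 to 607250, had 7 nrpe1 counts, 5 of them in the untagged library, and 5 Col-0 counts.

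The question for spt5l and ago4 is whether Pol V transcripts are made without these factors, which act beside or after Pol V. All these comparisons use the Col-0 libraries that also entered the choice of the stretch. Of the 187 windows 20 passed the filter on low counts, all of them in islands and all high in Col-0, so counts among them describe only those windows. None of the 20 came from islands 5 and 7, where the mean spt5l level was 61.2% and 33.7% of Col-0. Among the 20 the spt5l log2 changes had an SE from 0.41 to 0.62, so smaller changes could be missed. No tested window was called in spt5l (0 lower and 0 higher of the 20, quasi-likelihood test of edgeR, Benjamini-Hochberg adjusted). There were 0 also at an unadjusted p under 0.05 and 0 with DESeq2. Over all 36843 windows tested 3.81% were lower and 0.722% higher. Of the 9 gene bodies and gaps 7 could be tested, and in spt5l 0 were called by either tool, and 0 at an unadjusted p under 0.05 (0.801% lower and 0.16% higher over 26206 segments, that is gene bodies and gaps of the 5 chromosomes).

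The 4 gaps beside UMAMIT31 and UMAMIT29 gave spt5l changes near 0 with wide errors. The gap between UMAMIT31 and UMAMIT30 had a log2 change of 0.02 ± 0.58 (SE), that between UMAMIT29 and AT4G01435 −0.01 ± 0.47, that before UMAMIT29 −0.48 ± 0.56 and that between AT4G01435 and UMAMIT31 −0.35 ± 0.52. The UMAMIT31 body had 0.26 ± 0.58. Within sets the spt5l level of the stretch was 88.4% of Col-0 in untagged (counting interval 82.2 to 95.1) and 128.7% in gp3 (117 to 141), on opposite sides of Col-0. These values changed with the scaling. By windows outside Pol V transcription they were 64.4% (59.9 to 69.3) in untagged and 106.4% (97.0 to 116.7) in gp3.

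In ago4 a single window of the 20 passed the test, and it was higher than in Col-0. This window, 590101 to 590300 in island 3, had 23, 19, 20, 17, 3 and 1 counts in Col-0 and 60 (gp2) and 23 (gp3) in ago4. The log2 change was 1.37 ± 0.44 (SE) (edgeR, adjusted p = 0.0475), and over all windows 1.86% were higher and 8.53% lower. The call did not hold under any of the 6 other settings (adjusted p from 0.335 to 0.614, the replicate block's 0.390 among them) nor with either ago4 library left out (adjusted p of 0.511 without gp2 and 0.112 without gp3). No tested window was lower in ago4 by edgeR or DESeq2, and 2 of the 20 had an unadjusted p under 0.05. Island 7, the lowest in ago4 relative to Col-0, had no tested window. Without the filter its window 595351 to 595550 was called lower in ago4.

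For segments ago4 gave 0 calls of 7 in edgeR and DESeq2, and 0 at an unadjusted p under 0.05 (2.58% lower and 1.55% higher over all segments). Pooled, the stretch in ago4 was at 69.8% of Col-0 (66.0 to 73.6), and within sets at 73.2% in gp2 and 91.5% in gp3 (82.4 to 102). The pooled value is below both because the Col-0 pool holds sets without ago4, among them untagged (292 CPM) and gp4 (274 CPM). It thus mixes set with genotype. By scaling to windows outside Pol V transcription, ago4 was at 72.1% (66.1 to 78.6) in gp2 and 78.7% (70.8 to 87.4) in gp3. With counts scaled to windows outside Pol V transcription the median log2 change of all windows moved from −0.02 to −0.79, and the calls over all windows from 3144 lower and 685 higher to 4438 and 311. Over all segments they moved from 675 and 407 to 906 and 212, and the stretch gave 0 calls with that scaling.

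The islands did not all sit at the same share of Col-0. In spt5l their mean CPM ranged from 33.7% of the Col-0 mean (island 7) and 61.2% (island 5) to 138.8% (island 1). In ago4 it ranged from 14.6% (island 7) and 49.1% (island 2) to 99.5% (island 3). Island 2, before UMAMIT29, had 162 and 127 counts in spt5l and 119 and 78 in ago4, which is 28 ± 4.73 and 17.6 ± 0.640 CPM against 35.7 ± 7.99 in Col-0. For most islands the spt5l libraries lay within the SD of Col-0 or across it. The low share of island 7 did not hold within gp3, where spt5l had 4 and ago4 3 counts against 2 in Col-0, while in untagged spt5l was at 26.5% (16.0 to 42.1) and in gp2 ago4 was at 17.0% (7.82 to 33.9). For island 5 spt5l was at 45.2% of Col-0 in untagged and 90.3% in gp3, and for island 2 ago4 was at 52.8% in gp2 and 81.8% in gp3. These differences between islands were not tested.

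**Figure D3:**
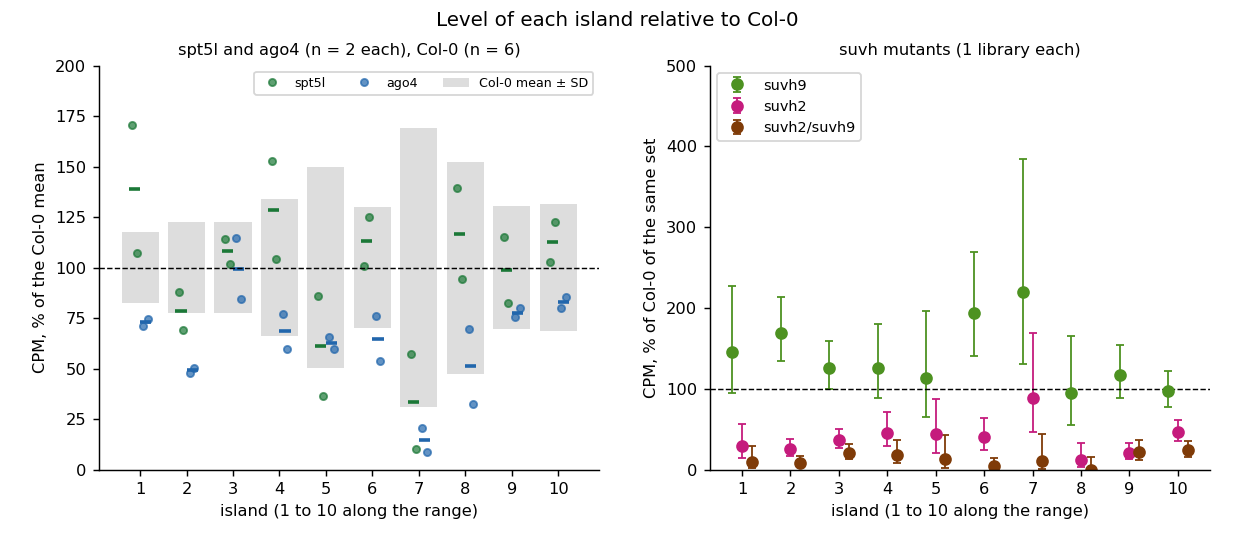
Level of each island relative to Col-0. Left, each point is 1 library of spt5l or ago4 as a percentage of the Col-0 mean CPM, short lines are the means, and grey bars the Col-0 mean ± SD; the ago4 mean lies lowest at island 7 (14.6%), where the Col-0 libraries spread most. Right, CPM of the single suvh libraries as a percentage of the gp4 Col-0 library, with 95% counting intervals; suvh2/suvh9 lies below 25% and suvh9 between 95.2% and 220% in every island.

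Set against each other, spt5l and ago4 gave 0 windows of 20 and 0 segments of 7 by edgeR and DESeq2. At an unadjusted p under 0.05 there were 2 windows and 0 segments. Over all windows 2.72% were lower and 5.46% higher in spt5l than in ago4, and over all segments 0.878% and 1.39%. Scaled to windows outside Pol V transcription, 522 windows were lower and 2437 higher, against 1003 and 2012, and 142 and 418 segments, against 230 and 365. The window nearest to a call was 582001 to 582200 in island 1 (log2 1.58 ± 0.55, edgeR, adjusted p = 0.0803), with 55 and 35 counts in spt5l and 10 and 10 in ago4. It passed with counts scaled to library totals (adjusted p = 0.0194) and without Col-0 gp3 (adjusted p = 0.0291). The contrast does not use Col-0, but Col-0 enters the shared estimate of the spread.

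Loss of signal in dms5-1 reached every tested window and segment. The stretch was chosen for loss in nrpe1 against the same Col-0 libraries, and the tested windows were all high in Col-0. Calls of a loss against Col-0 are thus a description and no separate evidence. All 20 windows were lower than in Col-0 (76.7% of all windows tested were lower and 2.23% higher; same edgeR test). All 7 segments were lower too (51.2% over all segments, and 4.44% higher), among them the body of UMAMIT31 (adjusted p = 0.00276), where dms5-1 had 0 counts and Col-0 was at least 6.65-fold higher. The gap between UMAMIT29 and AT4G01435 had 0 counts in both dms5-1 libraries (34.1-fold lower against the same floor). The gap between UMAMIT31 and UMAMIT30 had 2 and 4 counts and a log2 change of −3.95 ± 0.87 (adjusted p = 0.000475).

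Whether the dms5-1 signal was spread like that of Col-0 was not tested, as its counts are few. Of its 14 counts, 6 lay in windows outside Pol V transcription and 8 in islands, and 5 of these were in island 9. The 6, and the 5 of island 9, lay in overlapping neighbours, so reads may be counted more than once. In island 9 the windows starting at 601951 and 602101 had 3 and 2. Windows starting at 585151 and 585301 had 1 each in gp5, and those at 587701 and 587851 had 2 each in gp6. Pooled, Col-0 was 34.6 times dms5-1 (20.6 to 63.4). Of the segments only AT4G01435 lost its call with a library left out (edgeR's adjusted p = 0.179 without dms5-1 gp5, 0.0599 without dms5-1 gp6 and 0.0516 without ago4 gp3). It also did so with the replicate block (0.107) and without the filter (0.0592).

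In drd3-3, where the limit given for dms5-1 also holds, the loss was large but less complete. Of the 20 windows 15 were lower (41.1% of all windows tested, and 5.43% higher, same edgeR test). With a replicate block 6 were lower, and with either drd3-3 library left out 0 were. Of the segments 5 of 7 were lower (24.9% over all segments, and 8.13% higher), 1 without drd3-3 gp5 and 3 without gp6. Scaling to windows outside Pol V transcription moves the median of all windows from −2.64 to −4.12 in this contrast. It moves the calls over all windows from 15127 lower and 2002 higher to 27061 and 306, and over all segments from 6528 and 2131 to 12711 and 118. With it, 18 windows and 6 segments of the stretch were lower.

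The gaps of the stretch fell in drd3-3, with the UMAMIT31 to UMAMIT30 gap at a log2 change of −4.91 ± 1.03 (adjusted p = 0.00298), with 0 and 2 counts. The gap before UMAMIT29 had 1 and 4 counts (−2.82 ± 0.82, adjusted p = 0.0123). The gap between AT4G01435 and UMAMIT31 had 3 and 6 counts (−1.89 ± 0.70, adjusted p = 0.0386), and lost its call with the replicate block (0.156) and with any of 7 libraries left out (0.0521 to 0.256). Without drd3-3 gp5 the gap between UMAMIT31 and UMAMIT30 (0.0526) and that before UMAMIT29 (0.155) also missed the threshold. The body of UMAMIT31 had 2 and 0 counts and a log2 change of −1.98 ± 1.04 that missed the threshold (adjusted p = 0.135), though it passed under 4 of the 6 other settings (0.0112 to 0.0283). AT4G01435 had 2 and 4 counts and a log2 change of 0.19 ± 0.77. Most drd3-3 counts, 93.3% of 30, fell in islands.

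Compared directly, dms5-1 and drd3-3 differed in 0 of 20 windows by edgeR and DESeq2 (3 at an unadjusted p under 0.05; 0.399% lower and 0% higher over all windows). Of the segments 1 of 7 was lower in dms5-1 (8.2% over all segments, and 0.0763% higher), the gap between UMAMIT29 and AT4G01435, with 0 and 0 counts against 4 and 2 in drd3-3 (adjusted p = 0.0365). This call was lost under each of the 6 other settings (adjusted p from 0.0609 to 0.136, 0.0824 with the replicate block), and without dms5-1 gp5 (0.169), dms5-1 gp6 (0.238), drd3-3 gp5 (0.109) or ago4 gp3 (0.0611). At 12 and 18 counts over the whole stretch, single segments rest on a few reads.

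The factors that bring Pol V to chromatin had 1 library each, so they have counting error only and no test. Relative to Col-0 of gp4, the level of the stretch was 2.92% in drd1 (1.84 to 4.41), 7.55% in dms3 (5.57 to 10) and 0.424% in nrpe1. The suvh2 library had 36.5% (32.0 to 41.5), suvh9 135.7% (124 to 149) and suvh2/suvh9 17.8% (14.6 to 21.6). The double mutant was thus below both single mutants, and suvh9 above Col-0.

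Scaled to windows outside Pol V transcription, each value was lower, that of suvh9 within its counting interval: 1.20% in drd1, 3.53% in dms3, 22.5% in suvh2, 133.0% in suvh9 and 8.18% in suvh2/suvh9. The order of the genotypes was the same. In the dms3 library 9 of 51 counts lay in island 5, between AT4G01435 and UMAMIT31, where Col-0 of gp4 had 26. In the others that island had 1 (drd1), 14 (suvh2), 33 (suvh9) and 3 (suvh2/suvh9) counts.

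By island, suvh2 ranged from 11.6% of Col-0 in island 8, inside UMAMIT31, to 88.8% in island 7, with 4 and 23 counts. Island 9 had 24 counts in suvh2 and 18 in suvh2/suvh9 (20.9% and 21.7%), where the single and the double mutant were alike within counting error. In island 2 they had 37 and 9 (25.6% and 8.62%). In suvh9 islands 2, 6 and 7 had 223, 124 and 52 counts, against 117, 57 and 21 in Col-0.

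In nrpe1 the islands had almost no CHG and CHH methylation and CG at a like level to Col-0. These levels are the authors' averages with no replicate spread and no coverage, so they carry no test. Over island windows with a value in both genotypes, CG was 43.8% in Col-0 and 48.0% in nrpe1 (15 windows), CHG 20.9% and 0.217% (12 windows) and CHH 8.63% and 0.0257% (17 windows). CHH was lower in nrpe1 in 12 of 17 windows and higher in 0, the rest being at 0 in both.

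Of the windows with both values, all 5 with at least 10% CHH in Col-0 were under 1% in nrpe1, and so were all 5 with at least 10% CHG. Among all RdDM windows of the genome this held for 13.7% for CHH and 4.05% for CHG, and among RdDM windows with at least 20 Col-0 counts for 32.4% and 12.2%. The 5 windows are the same for CHH and CHG and are neighbours in islands 2 and 9 only. Further windows with that CHH level, in islands 3 and 4, had no nrpe1 value. Of 12 windows of the stretch with both values and CG of at least 10% in Col-0, 11 kept 10% or more in nrpe1. Over all windows of the genome with that level 95.7% did. The 11 were all RdDM windows in islands, and among RdDM windows of the genome 98.2% kept it. The exception among the 12, 596851 to 597050 in UMAMIT31, is a non-RdDM window and went from 15.9% to 0%. The windows overlap and the stretch was chosen on IPARE counts in the same genotypes, so these shares are given as a description.

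Outside the islands methylation was close to 0. CG there averaged 0.441% in Col-0 and 0.150% in nrpe1 (68 windows) and CHH 0.0281% and 0.0267% (75 windows). UMAMIT29 had 0% CG in both genotypes in all 11 windows with values, and UMAMIT30 at most 0.298% in 3. In UMAMIT31 the window beside island 8 with 15.9% CG in Col-0 had 0% in nrpe1. Values were missing for 1 or both genotypes in many windows (83 of 187 had both for CG, 74 for CHG and 92 for CHH), and islands 3, 6, 7 and 8 had none with both.

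**Figure D4:**
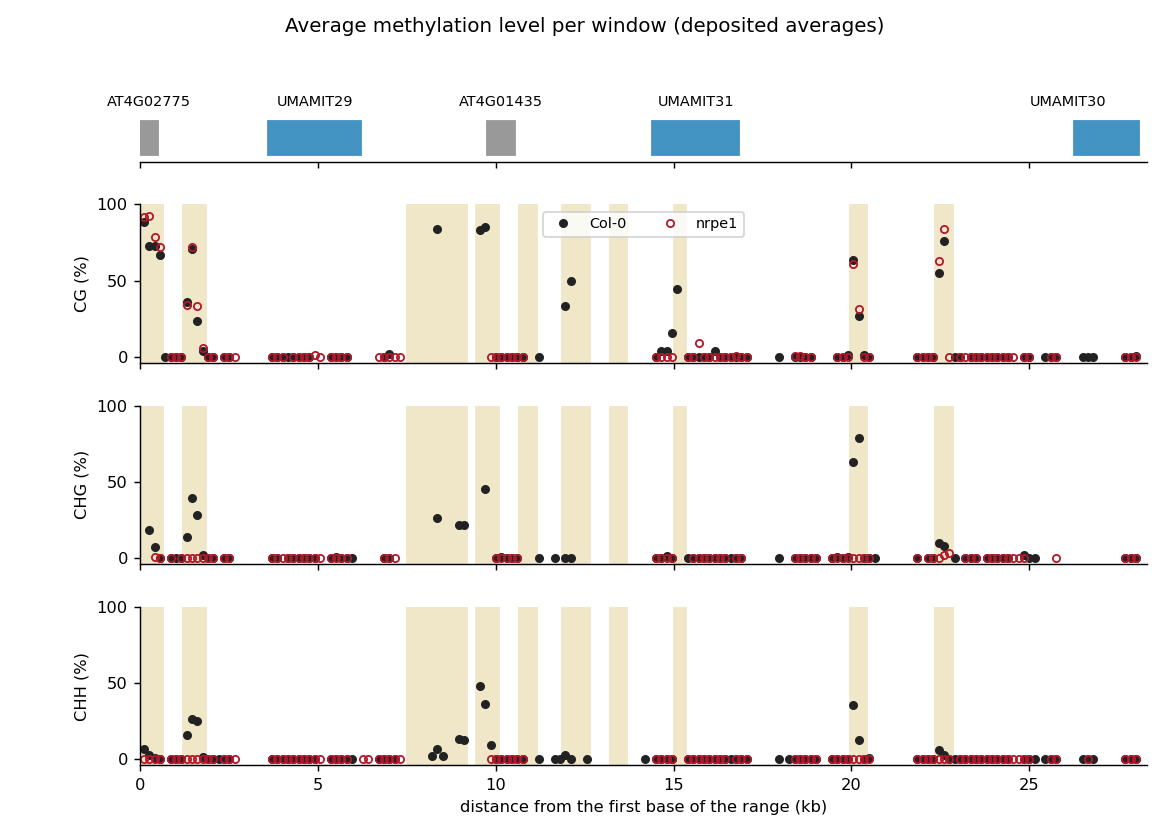
Average CG, CHG and CHH methylation (%) of each window in Col-0 (filled) and nrpe1 (open), against the distance from the first base of the stretch in kb, with islands shaded. At islands 2 and 9 CHG and CHH reach 39.3% and 26.4%, and 78.8% and 35.5%, in Col-0 and are at or near 0 in nrpe1, while CG is similar in both; gaps in the points are windows without a value.

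The flanks held less signal per window than the stretch. The stretch was chosen on Col-0 and nrpe1 counts, so a higher Col-0 level than in its flanks may be built in. Per window, Col-0 had 1.18 ± 0.288 CPM in the stretch, 0.591 ± 0.169 in the 20 kb to its left and 0.483 ± 0.123 in the 20 kb to its right, and 0.810 over all windows without ribosomal DNA. The strong windows just outside the left end, beside island 1, are part of the left flank. Among the 5 nearest genes on either side, AT4G01490, a pseudogene to the right, had the most, with 154 ± 33.0 CPM in Col-0 (3257 counts) and 2.32 ± 2.16 in nrpe1 (25 counts). Of the others the highest were AT4G03875 with 125 Col-0 counts, AT4G01395 with 133 and TIP1;3, an aquaporin gene, with 103.

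Within the UMAMIT family UMAMIT31 had rank 5 of 47 genes by Col-0 level, and UMAMIT30 and UMAMIT29 were near the bottom (ranks 34 and 40). UMAMIT45 had the most, 3480 Col-0 counts (162 ± 47.8 CPM) against 42 in nrpe1. UMAMIT45, UMAMIT46, UMAMIT47 and UMAMIT41 lie on chromosome 3 and resemble each other, and the sources used here do not say how reads shared by such copies were counted. Of the 47 genes 17 passed the filter.

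For the family spt5l gave 0 calls by edgeR and DESeq2, with 1 gene at an unadjusted p under 0.05. The median log2 change was 0.14 over the 17 genes, against −0.01 over all segments. In ago4 1 gene was higher (1.55% over all segments) and 0 lower: UMAMIT26, with 95 counts in ago4 (8.13 ± 1.71 CPM) against 17 in Col-0 (0.973 ± 1.34). Its log2 change was 3.46 ± 0.91 (edgeR, adjusted p = 0.0273), and DESeq2 called 0. The call was also lost under the other 3 scalings, and without Col-0 untagged or gp4 or either ago4 library.

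Against Col-0, 10 of the 17 genes fell in dms5-1: UMAMIT45, UMAMIT46, UMAMIT17, UMAMIT47, UMAMIT31, SIAR1 (an amino acid transporter active in siliques), UMAMIT19, UMAMIT38, UMAMIT41 and UMAMIT2. Over all segments 51.2% were lower, a share near that of the family. The replicate block left 5, and leaving out dms5-1 gp5 or gp6 left 6 or 5. In drd3-3 5 fell, UMAMIT45, UMAMIT46, UMAMIT47, SIAR1 and UMAMIT19, beside 24.9% over all segments. The number of lower genes was 0 and 2 without drd3-3 gp5 and gp6, and 3 without ago4 gp3. WAT1, a vacuolar auxin transporter of the family, had 130 Col-0 and 49 nrpe1 counts and was called in neither.

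Many loci shared the pattern of the stretch over libraries. Among 923 segments elsewhere with at least 5326 counts over all libraries, the Pearson correlation of log2(CPM + 0.5) with the stretch over 24 libraries had a median of 0.04, and 238 segments were above 0.9. The most alike were the gaps AT2G05510 to AT2G05518 (r = 0.980), AT1G12935 to NRT2.5 (0.979), RXW8 to AT1G09705 (0.978) and AT3G61210 to SDR1 (0.976), and the gene APD3 (0.976). The libraries share sets and depth, so r is a description, and these loci were also high in Col-0 (132 to 154 CPM) and low in nrpe1 (1.88 to 4.86 CPM).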

How the data were processed

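The authors deposited whole-number read counts per window for the 24 IPARE libraries, and average methylation per window as a fraction, with no coverage, so its depth is unknown. The deposited class lists are named for bins of a hidden Markov model, with settings the sources used here do not give. The submitters' processing notes name TAIR10 as the build, and Bismark, Bowtie2, cutadapt and UMI-tools, with neither versions nor roles. The sources used here do not say how reads with several mapping positions were handled, so values of near-identical genes are uncertain.

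Gene names and neighbours came from the RefSeq table of TAIR10.1, another release than that named for the files. A window was given to a gene where its midpoint lay in it, and runs of windows between genes formed gaps, which gave 65862 segments in all. CPM is counts scaled from a library's window total to 1000000. Window totals ran from 785943 to 6957714. The stretch, its members, the lists and the tests were chosen with earlier results of these data known.

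Tests over all windows and over all segments used edgeR 4.0.16 (quasi-likelihood, TMM, R 4.3.3) on the 19 libraries of the 6 replicated genotypes, with filterByExpr (count minimum 10, total minimum 15), Benjamini-Hochberg adjustment and a threshold of 0.05. The edgeR fit was also run on simulated counts, drawn from a common mean over all groups with known changes placed in ago4 only. That run does not speak for the other contrasts or for groups with few counts. Other settings were scaling to library totals, to windows outside Pol V transcription without ribosomal DNA, or by DESeq2 size factors, DESeq2 1.42.0, no filter, a replicate block by set, and leaving out each library. Deviations of Col-0 and nrpe1 libraries of the same set correlated positively in all 5 sets (r from 0.111 to 0.369, against −0.245 to 0.258 between sets). These ranges overlap, with gp6 lowest of the same-set values, so the sets may pair libraries but not clearly in each set. The tests had no set term, and the fit with sets as a block is given where it changed a call. The closest of 29 pairs of libraries within a genotype differed by 2.67 times the chi-square expected from counting. Labels do not say that libraries came from separate plantings, so the spread behind each p-value may be technical. Intervals are at 95%, from Poisson or binomial formulas, and cover counting error only. Sums run over overlapping windows, where a read can count more than once, so the intervals may be too narrow. Fold values against a floor of 3 counts leave out the counting error of the other group.

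Named were the 3 UMAMIT genes and the gaps, the highest window of each by mean CPM over the 19 libraries, windows with at least 20 summed Col-0 counts, 2 windows on either side of both ends, 5 genes on either side, family members called in a contrast, and the 5 most alike segments. WAT1 and windows near a call were named after their values were seen. Sequences are not shown, since none were at hand.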

Additional observations from a re-analysis of the deposited data

Results flagged for a closer look

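The body of UMAMIT29 had 1.72 CPM (7 counts) in the Col-0 library of gp2, and the next highest of the 6 Col-0 libraries had 0.354 CPM. The gap between them took 0.794 of the range of the group, which flagged this library as far from the others. Over the 23 groups examined, about 1 in 20 would be flagged by chance, a rate that need not hold for counts this low. The counts of this library include 2 in each of the overlapping windows starting at 586051, 586201 and 586351.

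In the gap between UMAMIT29 and AT4G01435 the change against Col-0 differed between dms5-1 and drd3-3 by −7.07 on the log2 scale (edgeR, adjusted p = 0.0365), a difference between mutants tested directly. As dms5-1 has 0 counts there, the fitted value depends on the prior count and is no bound. Against a floor of 3 counts over both dms5-1 libraries, drd3-3 with 6 counts was 2.52-fold higher, leaving out the counting error of those 6. This call was lost under each of the 6 other settings.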

How the results depend on the processing

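No called change of a segment of the stretch turned its direction under any setting run. The level of spt5l, above Col-0 by library totals (233 against 221 CPM), was below it when scaled to windows outside Pol V transcription (89.3% of Col-0). Leaving out the filter on low counts gave 38 windows of the stretch lower in dms5-1, where more windows were tested. Under the replicate block 6 windows were lower in drd3-3, and 5 UMAMIT family genes lower and 1 higher in dms5-1. The window higher in ago4 was not called under any of the 6 settings (0), and scaling to library totals and dropping the filter each gave 1 window lower in ago4 (590401 to 590600, and 595351 to 595550). Library totals also gave 1 window higher in spt5l than in ago4. The segment lower in dms5-1 than in drd3-3 was called in 0 of the 6 settings. Of the family, 0 genes were higher in ago4 under the 3 other scalings and DESeq2, and 3 without the filter. In drd3-3 9 were lower with library totals, DESeq2 size factors and DESeq2, and 10 with the class scaling. Without the filter 2 were lower in spt5l than in ago4 and 1 was higher in dms5-1. DESeq2, no filter and the block each gave 1 lower in dms5-1 than in drd3-3. The block changed these calls, those given above for AT4G01435 in dms5-1 and the AT4G01435 to UMAMIT31 gap in drd3-3, and no other segment call of the stretch. The cause of these changes was not tested.

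Leaving out 1 library at a time gave 0 to 1 windows higher in ago4, 0 to 16 windows lower in drd3-3, 0 to 1 higher in spt5l than in ago4, 1 to 5 segments lower in drd3-3 and 0 to 1 lower in dms5-1 than in drd3-3. For the family it gave 0 to 1 higher in ago4, 5 to 11 lower and 0 to 1 higher in dms5-1, 0 to 6 lower in drd3-3, and 0 to 1 lower in dms5-1 than in drd3-3. Where this left a mutant with 1 library, that library was assumed to vary like the other groups.

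Scaled to windows outside Pol V transcription, the mean level of the stretch was 59.6% of the mean over all Col-0 sets in ago4 and 5.34% in drd3-3. Against Col-0 of the same set, drd3-3 was at 6.38% in gp5 and 10.95% in gp6, and the ago4 values are given above. Against Col-0 of gp4 the level was 1.20% in drd1, 3.53% in dms3, 22.5% in suvh2 and 8.18% in suvh2/suvh9. Averaged over islands rather than all windows, methylation in Col-0 and nrpe1 was 43.8% and 48.0% for CG, 20.9% and 0.217% for CHG, and 8.63% and 0.0257% for CHH.

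In dms5-1, drd3-3 and nrpe1 the stretch had 2 to 18 counts a library, so their values rest on few reads, and 167 of its 187 windows had too few counts to test.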
